A study of Mus musculus with 8 samples.

Results

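Glutathione S-transferases join the thiol of glutathione to reactive, electron-poor molecules. They are a family of enzymes in the cytosol, grouped by sequence into alpha, mu, pi, omega, theta and other classes, and an unrelated set of membrane enzymes called microsomal transferases. In fat cells they are known for clearing the aldehydes that form when lipids are oxidised, above all 4-hydroxynonenal. Many of their genes are background targets of the transcription factor NRF2 (Nfe2l2), which binds antioxidant response elements. The genes described here are 10 of the 22962 in the table, chosen by name: the alpha-class genes Gsta3 and Gsta4, the mu-class genes Gstm1, Gstm2 and Gstm5, the pi-class gene Gstp1, the omega-class gene Gsto1, the theta-class gene Gstt1 and the microsomal genes Mgst1 and Mgst3. All 10 were found in the table.

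The cells came from gonadal fat of wild-type mice. They were stromal vascular fraction cells, the mixture left once floating fat cells are removed, differentiated to adipocytes in the dish. They received either the solvent DMSO or DoxSa, an agent that the labels do not spell out, on day 6, and 4 libraries were sequenced from each group. The labels name no dose, exposure time, age or sex. Nor is it stated that each library stands for its own culture or mouse, so the p-values speak only of the spread among these 8 samples, which may be technical. Values are FPKM, reads scaled to the length of the gene and to the size of the library. The library totals recovered from the steps of the FPKM values lay between 39213008 and 41365861 reads.

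The cultures were a mixture. Adipocyte markers were abundant and summed to between 12014 and 12378 FPKM in DMSO and between 11999.8 and 12656 FPKM in DoxSa, led by Fabp4 and Lpl, a fatty acid carrier and a lipase. Macrophage markers, led by Lyz2 and C1qb, summed to between 6280.0 and 7238 FPKM in DMSO and between 7003 and 7482 FPKM in DoxSa. Fibroblast and progenitor markers, led by Col3a1 and Col1a1, summed to between 3120.1 and 3496 FPKM and between 3126 and 3521 FPKM. Smooth muscle and pericyte markers, led by Tagln and Acta2, did not overlap between the groups, at 586 to 653 FPKM in DMSO and 411 to 466 FPKM in DoxSa. Mesothelial markers (Krt19, with Wt1 far below it) summed to 16.8 to 17.3 FPKM in DMSO and 11.6 to 16.2 FPKM in DoxSa, and endothelial markers (Pecam1 and Cdh5) to 1.49 to 1.87 FPKM and 2.01 to 2.28 FPKM, so both were low and did not overlap between the groups. Lymphocyte markers, led by Cd4 and Nkg7, summed to at most 0.298 FPKM. Of the 8 lymphocyte markers 5 were in the table, and of the 7 mesothelial markers 5. The other marker lists were complete. None of the markers found in the table was at 0 in all libraries. In such bulk samples, fewer cells of a type and less RNA per cell cannot be told apart.

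Of the 10 transferase genes 1 rose with DoxSa and 0 fell. The gene that rose was Gsta4, which encodes the alpha-class enzyme with a preference for 4-hydroxynonenal, and its mean level was 1.46-fold higher in DoxSa. The other 9, among them the abundant genes Mgst1, Gstm1 and Gstm2, did not pass the test, and their log2 fold changes lay between -0.18 and 0.14. The test was limma on log2(FPKM + 1), fitted over the 12060 genes whose mean reached 0.5 FPKM, with calls at a Benjamini-Hochberg adjusted p under 0.05. All 10 genes passed that minimum. Of all tested genes 5.90% were called, 3.88% higher and 2.02% lower, and with 10 members a single gene makes the difference between a share under that background and one above it. At an unadjusted p under 0.05, 2 of the 10 were higher and 3 lower, where 19.8% of all tested genes reached that level in either direction. By voom on the recovered reads 1 member was called higher and 0 lower, against 627 higher and 317 lower among all 12060 genes. The median log2 fold change of the 10 genes was -0.03, against 0.01 over all tested genes.

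**Figure D1:**
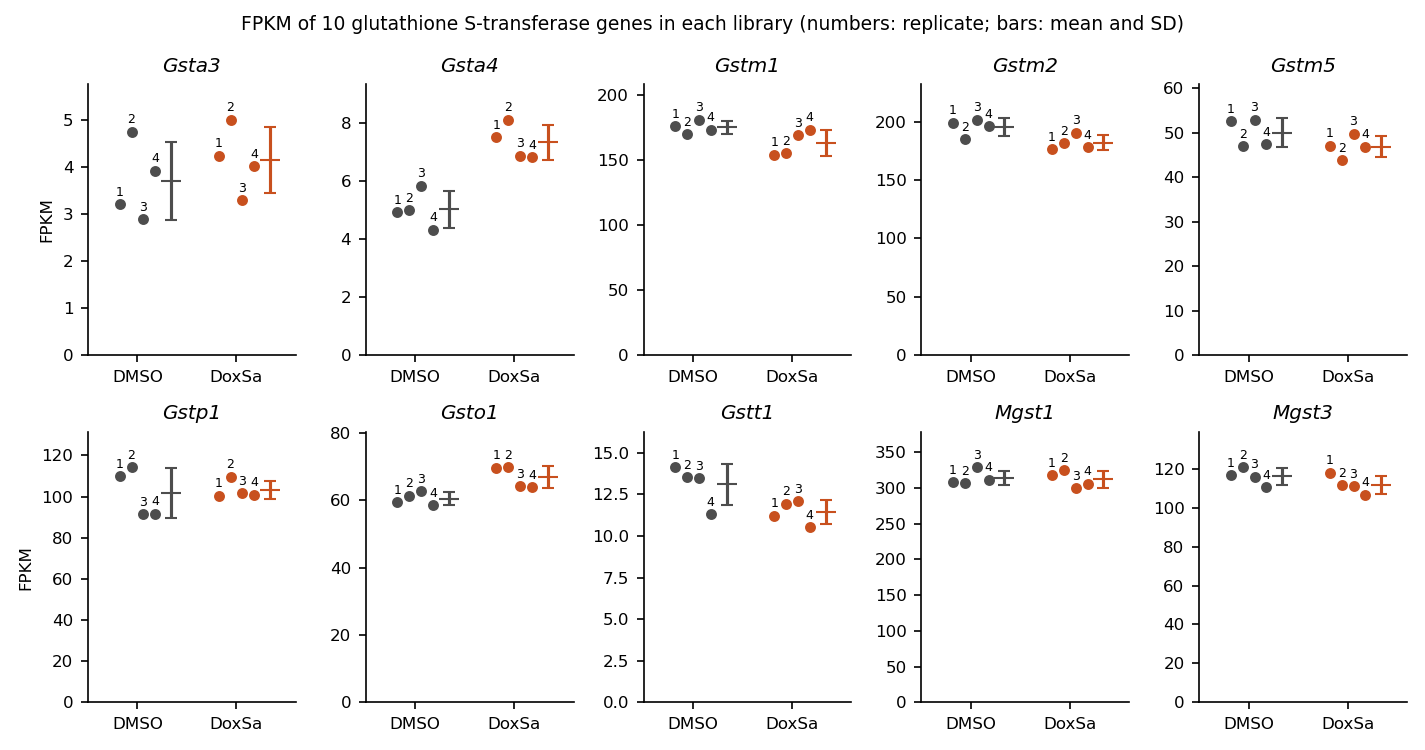
FPKM of the 10 transferase genes (vertical axes, each from 0) in each of the 4 DMSO (grey) and 4 DoxSa (orange) libraries, with the replicate number above each point and bars for mean and SD. The DoxSa libraries of Gsta4 and of Gsto1 all lie above the DMSO libraries, and the groups of the other 8 genes overlap.

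The members spanned a wide range of abundance. Mgst1 was the highest, with a mean of 313 FPKM over the 8 libraries and rank 206 of the 12060 tested genes. Gstm2, Gstm1, Mgst3 and Gstp1 followed at 189, 169, 114 and 102 FPKM, then Gsto1 and Gstm5 at 63.7 and 48.5 FPKM and Gstt1 at 12.3 FPKM. The alpha-class genes were the lowest, Gsta4 at 6.19 FPKM (rank 6486) and Gsta3 at 3.92 FPKM (rank 7916). Within DMSO, neighbours in this order lay apart beyond their library ranges, except Mgst3 (111 to 121 FPKM) and Gstp1 (91.3 to 114 FPKM), and Gsta4 (4.33 to 5.85 FPKM) and Gsta3 (2.89 to 4.76 FPKM). The 10 genes together summed to 1034 ± 20.8 FPKM (SD, n = 4) with DMSO and 1008 ± 10.1 FPKM with DoxSa, or 0.249% and 0.241% of all FPKM, given here as a description. Mgst1 alone made up 30.3% of that sum in DMSO and 30.9% in DoxSa, and Gsta4 0.486% and 0.728%.

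Gsta4 (Entrez 14860), a gene of the alpha class, measured 4.93, 5.005, 5.85 and 4.33 FPKM in DMSO 1 to 4 and 7.52, 8.12, 6.89 and 6.84 FPKM in DoxSa 1 to 4. Every DoxSa library lay above every DMSO library, with DMSO 3 the highest of the controls and DoxSa 4 the lowest of the treated. The means (± SD, n = 4) were 5.03 ± 0.624 FPKM and 7.34 ± 0.605 FPKM. On the log2(FPKM + 1) scale the difference was 0.47 ± 0.08 (SE, 95% interval 0.31 to 0.64, limma adjusted p = 0.00479), and its p-value ranked 145 among the 12060 tested genes. These values rested on 170 to 309 reads per library, for which counting alone gives a coefficient of variation of 6.44%, against 12.4% observed within DMSO and 8.24% within DoxSa. Gsta4 was called in each of the 19 alternative analyses, with log2 fold changes between 0.41 and 0.55 and adjusted p between 0.00237 and 0.0458. Smooth muscle and pericyte markers moved with the same contrast, 4 of 6 tested being lower, as did the macrophage markers Ptprc and Cd14 (2 of 10 called higher, all 10 with a positive log2 fold change). Of the 10 adipocyte markers 9 had a negative log2 fold change, with a median of -0.08. Over all tested genes 56.7% had a positive one. In 2 of the 10 adipocyte markers all DoxSa libraries were lower, where 4.71% of all tested genes were. Of these 10 markers 1, the hormone gene Retn, was called lower (-0.20 ± 0.04, limma adjusted p = 0.0151), although the summed levels overlapped. The part of these markers in the level of Gsta4 was not tested.

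Gsta3 (Entrez 14859), whose product is known as a detoxifying enzyme, measured 3.21, 4.76, 2.89 and 3.92 FPKM in DMSO 1 to 4 and 4.24, 5.01, 3.30 and 4.02 FPKM in DoxSa 1 to 4. Its groups overlapped widely, and it had the largest relative spread of the 10 genes, 22.4% within DMSO and 16.98% within DoxSa, where counting alone gives 6.21%. The log2 fold change was 0.14 ± 0.12 (95% interval -0.13 to 0.41, adjusted p = 0.607). That interval overlaps the one of Gsta4.

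Set against the other members within each library, Gsta4 shifted upward relative to 8 of the 9 without overlap between the groups. This is a description with no test, since Gsta4 was singled out after its result was seen. The shift, a difference of differences in log2(FPKM + 1), lay between 0.33 ± 0.06 (SE) for Gsto1 and 0.65 ± 0.08 for Gstt1. Relative to Gsta3, the other alpha-class gene, it was 0.33 ± 0.19 and the groups overlapped.

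**Figure D2:**
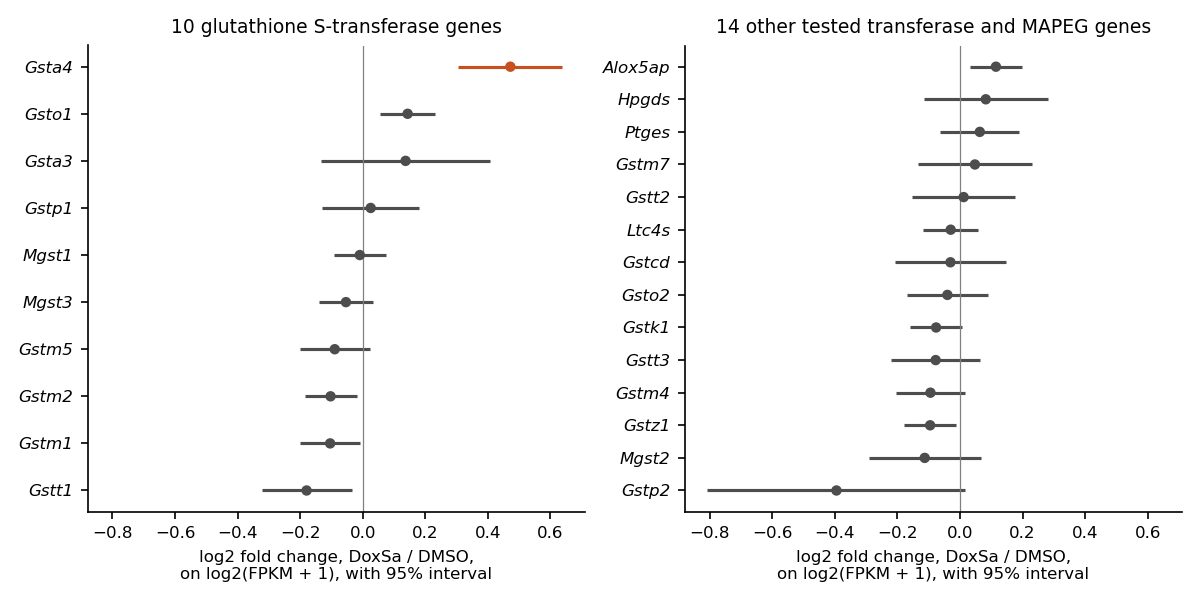
Log2 fold changes of DoxSa over DMSO on log2(FPKM + 1) (horizontal axes) with 95% intervals of the limma fit, for the 10 transferase genes and for 14 other tested genes of the families, called genes in orange. Gsta4 at 0.47 is the called gene in the left panel, and no gene of the right panel was called.

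Gsto1 (Entrez 14873) encodes the omega-class enzyme, a thiol transferase that can reduce dehydroascorbate and remove glutathione from proteins. It measured 59.4, 61.3, 62.7 and 58.4 FPKM in DMSO 1 to 4 and 69.6, 69.8, 64.2 and 63.9 FPKM in DoxSa 1 to 4. The groups did not overlap, although DMSO 3 lay only a little below DoxSa 4. With Gsta4 this made 2 of 10 genes whose DoxSa libraries were all higher, where 7.80% of all tested genes were, and 0 of 10 whose DoxSa libraries were all lower, where 4.71% were. The log2 fold change of Gsto1 was 0.14 ± 0.04 (95% interval 0.05 to 0.23) and did not pass the test (adjusted p = 0.0644). Over the 19 alternatives its adjusted p lay between 0.0565 and 0.171, so it was called in none of them.

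The mu-class genes lie in 1 cluster on chromosome 3 and encode abundant general detoxifying enzymes. Gstm1 (Entrez 14862) measured 176, 169.6, 181 and 173 FPKM in DMSO 1 to 4 and 154, 155, 169 and 173 FPKM in DoxSa 1 to 4. Gstm2 (Entrez 14863) measured 199, 185, 202 and 196 FPKM in DMSO and 177, 182, 191 and 178 FPKM in DoxSa. Gstm5 (Entrez 14866) measured 52.7, 47.0, 52.9 and 47.4 FPKM in DMSO and 47.1, 43.8, 49.8 and 46.9 FPKM in DoxSa. In each of the genes the DoxSa mean was the lower one, and in each the groups overlapped, through DoxSa 4 for Gstm1 and DoxSa 3 for Gstm2. The log2 fold changes were -0.10 ± 0.04 for Gstm1 (95% interval -0.20 to -0.01, adjusted p = 0.209), -0.10 ± 0.04 for Gstm2 (-0.19 to -0.02, adjusted p = 0.152) and -0.09 ± 0.05 for Gstm5 (-0.20 to 0.02, adjusted p = 0.372). Gstm4, a further tested gene of the cluster, had a value of -0.09 ± 0.05 and Gstm7 one of 0.05 ± 0.08, and neither passed the test.

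Gstt1 (Entrez 14871), a theta-class enzyme that acts on small halogenated molecules, measured 14.1, 13.5, 13.5 and 11.3 FPKM in DMSO 1 to 4 and 11.2, 11.9, 12.1 and 10.5 FPKM in DoxSa 1 to 4. DMSO 4 stood below the other controls and inside the DoxSa range, and the groups were otherwise apart. The log2 fold change was -0.18 ± 0.07 (95% interval -0.32 to -0.04, adjusted p = 0.149). Without DMSO 4 it was -0.24 and passed the test (adjusted p = 0.0249), and it passed in none of the other 18 alternatives, where the largest adjusted p was 0.318.

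Gstp1 (Entrez 14870), the pi-class enzyme, also known to bind and restrain the stress kinase JNK, measured 109.9, 114, 91.3 and 91.6 FPKM in DMSO 1 to 4 and 100.3, 109.6, 102 and 100.9 FPKM in DoxSa 1 to 4. The DMSO libraries fell into a higher and a lower pair, with the DoxSa libraries between them. The log2 fold change was 0.03 ± 0.07 (95% interval -0.13 to 0.18, adjusted p = 0.895). Its neighbour Gstp2 was far lower, at 5.21 ± 1.71 FPKM in DMSO and 3.66 ± 0.995 FPKM in DoxSa.

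The microsomal enzymes sit in the membranes of the endoplasmic reticulum and mitochondria and are background members of the MAPEG family, with both transferase and peroxidase activity. Mgst1 (Entrez 56615) measured 308, 306, 329 and 311 FPKM in DMSO 1 to 4 and 317, 325, 299 and 306 FPKM in DoxSa 1 to 4. Mgst3 (Entrez 66447) measured 117, 121, 116 and 111 FPKM in DMSO and 118, 112, 111 and 107 FPKM in DoxSa. The groups of both genes overlapped. The log2 fold change of Mgst1 was -0.01 ± 0.04 (95% interval -0.09 to 0.07, adjusted p = 0.934) and that of Mgst3 was -0.05 ± 0.04 (-0.14 to 0.03, adjusted p = 0.501). With 16883 to 18826 reads per library Mgst1 was the most deeply counted member. Its interval ran from 0.938-fold to 1.05-fold on the log2(FPKM + 1) scale, and it covers only the spread among these libraries.

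Paralogs that share sequence can share or lose reads in counting. Of the 50-base stretches of the Gstp1 transcript, 62.3% also occurred in a transcript of another gene, all of them in Gstp2, so the levels of that pair are uncertain. Their summed level was 107.0 ± 11.8 FPKM in DMSO and 106.8 ± 5.34 FPKM in DoxSa. The share was 33.0% for Gstm1, with the pseudogene Gstm2-ps1 and Gstm3 sharing the most, 9.36% for Gstm2 and 14.4% for Gstm5, there with the overlapping transcript 4933431E20Rik. Gstm1 and Gstm2 were 86.0% identical over their aligned coding bases, Gstm5 was 71.7% and 72.5% identical to them, and Gsta3 and Gsta4 were 66.8% identical. Gsta4, Gsta3, Gsto1, Gstt1, Mgst1 and Mgst3 shared 0% of their stretches with transcripts of other genes.

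Promoter sequence was looked at because NRF2 binds the antioxidant response element, whose core is TGACNNNGC. The 250 bases before the start of a gene were searched on both strands in the RefSeq table of build GRCm38.p6, which covered 9 of the 10 members. Gsta4 was not in it. This exact core stood in 3 of the 9, Gsta3, Gstm5 and Mgst1 (at 1 of its 2 starts), and in 11.5% of all genes of the table and 14.3% of the tested ones. The windows of these 3 members are shown with the core, or its reverse complement, in capitals, beside that of Gclm, a called gene of glutathione synthesis.
Gsta3, chr1:21240335-21240584, + strand: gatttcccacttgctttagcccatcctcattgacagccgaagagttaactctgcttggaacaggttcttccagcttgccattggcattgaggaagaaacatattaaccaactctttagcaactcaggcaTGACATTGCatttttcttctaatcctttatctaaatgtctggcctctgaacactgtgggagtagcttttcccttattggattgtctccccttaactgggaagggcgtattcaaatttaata
Gstm5, chr3:107895604-107895853, + strand: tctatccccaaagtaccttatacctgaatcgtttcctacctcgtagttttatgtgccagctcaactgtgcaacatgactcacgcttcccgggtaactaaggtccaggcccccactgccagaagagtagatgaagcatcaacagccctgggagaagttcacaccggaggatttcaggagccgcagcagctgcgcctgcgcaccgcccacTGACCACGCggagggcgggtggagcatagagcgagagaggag
Mgst1, chr6:138140277-138140526, + strand: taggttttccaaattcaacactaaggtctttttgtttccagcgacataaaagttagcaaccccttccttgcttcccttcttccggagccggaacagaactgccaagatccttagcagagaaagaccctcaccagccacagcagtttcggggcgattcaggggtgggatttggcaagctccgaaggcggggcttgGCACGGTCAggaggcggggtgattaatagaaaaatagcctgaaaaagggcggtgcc
Gclm, chr3:122245307-122245556, + strand: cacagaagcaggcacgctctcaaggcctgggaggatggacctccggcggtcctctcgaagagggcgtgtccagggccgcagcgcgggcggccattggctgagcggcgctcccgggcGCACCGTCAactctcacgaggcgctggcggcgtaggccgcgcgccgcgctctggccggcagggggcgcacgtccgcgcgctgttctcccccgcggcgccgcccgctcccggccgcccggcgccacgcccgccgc
The core began 121 bases before the start in Gsta3, 42 in Gstm5, 56 in Mgst1 and 134 in Gclm, on the reverse strand in the last 2. The log2 fold changes of the members with the core were 0.14 for Gsta3, -0.09 for Gstm5 and -0.01 for Mgst1, none of them called, while that of Gclm was 0.26 ± 0.05 (adjusted p = 0.00979). The window of Slc7a11, a further called gene of glutathione supply that was searched, held 0 matches. Gclc was also looked for and had no window. How many of all called genes hold the core was not determined, so Gclm stands as a single example. Variants of the core were not searched. The window of Gstp1, for example, holds TGAGTCAGC, which has a G in place of the C of the core and was not counted. A match of letters is a description of the window and not a site of binding.

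Of 22 further genes of the transferase and MAPEG families, 20 were in the table and 14 were tested, and 0 were called higher and 0 lower. At an unadjusted p under 0.05, 1 was higher (Alox5ap) and 1 lower (Gstz1), and voom called 0 of them. Alox5ap, which presents arachidonic acid to 5-lipoxygenase, had a log2 fold change of 0.12 ± 0.04 (adjusted p = 0.112) and Gstz1, an enzyme of tyrosine breakdown, one of -0.095 ± 0.04 (adjusted p = 0.183). The lowest value was that of Gstp2 at -0.395 ± 0.19 (adjusted p = 0.273), the gene that shares stretches with Gstp1. The values of Gstm4, Gstm7, Gsto2, Gstt2, Gstt3, Gstk1, Gstcd, Hpgds, Mgst2, Ptges and Ltc4s lay between -0.11 and 0.08. The alpha-class genes Gsta1 and Gsta2 were nearly silent at means of 0.0254 and 0.0149 FPKM, as were Gstm3, Gstm6, Gstp3 and Gstt4 at means of at most 0.259 FPKM, and these were not tested. Gsta4 and Gsta3 were the alpha-class genes that entered the test.

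Glutathione itself is made from cysteine, glutamate and glycine and is recycled by reduction. For the counts of this and the other lists, 5.90% of all tested genes were called and 19.8% had an unadjusted p under 0.05. By voom 627 of the 12060 genes were higher and 317 lower. Of 17 tested genes of glutathione supply and recycling 8 rose and 0 fell (unadjusted p under 0.05 for 9 higher and 0 lower, and by voom 8 higher and 0 lower), with a median log2 fold change of 0.197. Slc7a11 and Slc3a2, the subunits of the cystine importer, had values of 0.98 ± 0.06 (adjusted p = 1.54e-05) and 0.36 ± 0.04 (adjusted p = 0.00103), and Gss, glutathione synthetase, one of 0.27 ± 0.04 (adjusted p = 0.00195). On the FPKM scale itself Slc7a11 went from 0.481 ± 0.0457 FPKM to 1.93 ± 0.195 FPKM (SD, n = 4), a ratio of means of 4.01, which the added pseudocount of 1 understates at this low level. Gclc and Gclm, the subunits of the rate-limiting ligase, had values of 0.23 ± 0.06 (adjusted p = 0.0364) and 0.26 ± 0.05 (adjusted p = 0.00979). The nearest tested neighbours of Gsta4 on chromosome 9, namely C920006O11Rik, Cilk1, Cgas and Mto1, were not among the called genes, with values of -0.23, 0.05, 0.08 and -0.03.

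Of 13 tested genes that export glutathione conjugates or trim them to mercapturates, 2 rose and 0 fell (unadjusted p under 0.05 for 4 higher and 1 lower, and by voom 4 higher and 1 lower). They were the export pumps Abcc1 (0.25 ± 0.04, adjusted p = 0.00342) and Abcc4 (0.25 ± 0.05, adjusted p = 0.0147). Of 21 tested genes that clear reactive aldehydes by other routes, 2 rose and 1 fell. At an unadjusted p under 0.05, 4 were higher and 2 lower, and voom called 2 higher and 1 lower. Adh7 (0.39 ± 0.08, adjusted p = 0.0166) and Cbr3 (0.27 ± 0.07, adjusted p = 0.0475), an alcohol dehydrogenase and a carbonyl reductase, were higher, and the retinaldehyde dehydrogenase gene Aldh1a1 was lower (-0.34 ± 0.05, adjusted p = 0.00366). Of 11 tested glutathione peroxidases and peroxiredoxins, 2 rose and 0 fell (unadjusted p under 0.05 for 2 higher and 0 lower, and by voom the same counts). These were Prdx1 (0.28 ± 0.06, adjusted p = 0.0142) and Prdx6 (0.18 ± 0.04, adjusted p = 0.0132), of which the latter uses glutathione as its reductant together with the pi-class transferase.

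**Figure D3:**
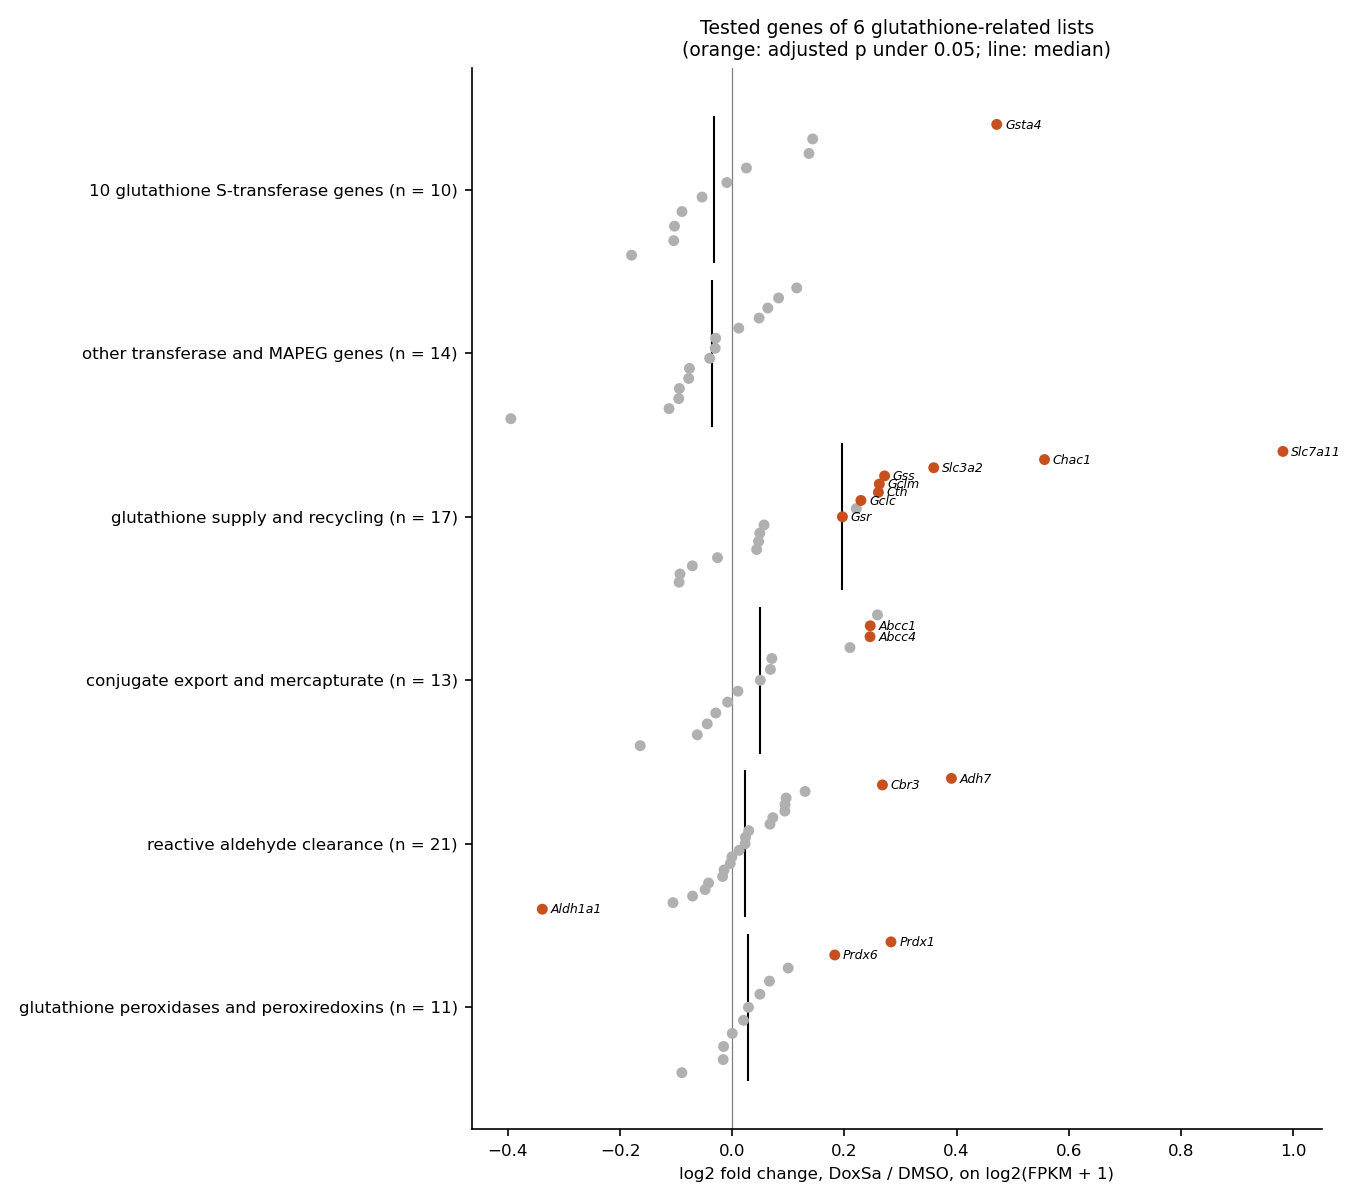
Log2 fold changes of DoxSa over DMSO on log2(FPKM + 1) (horizontal axis) of every tested gene of 6 lists (rows), with called genes in orange and named, and a line at each list's median. The median is -0.03 for the 10 transferase genes and 0.197 for glutathione supply and recycling.

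Among 16 tested NRF2 regulators and reference targets 8 rose and 0 fell (unadjusted p under 0.05 for 11 higher and 1 lower, and by voom 10 higher and 1 lower), with a median of 0.21. Nfe2l2 itself had a value of 0.19 ± 0.03 (adjusted p = 0.00939) and Keap1, which marks NRF2 for breakdown, one of 0.03 ± 0.03 (adjusted p = 0.695). The target Txnrd1 had a value of 0.64 ± 0.05 (adjusted p = 9.53e-05), Sqstm1 one of 0.51 ± 0.04 (adjusted p = 9.59e-05) and Slc7a11 the value given above. The 16 targets and regulators ranged from -0.17 to 0.98, and the 10 transferase genes from -0.18 to 0.47. These lists hold genes picked by known function, with results of these data already in view, and they overlap with each other in Gclc, Gclm and Slc7a11.

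**Figure D4:**
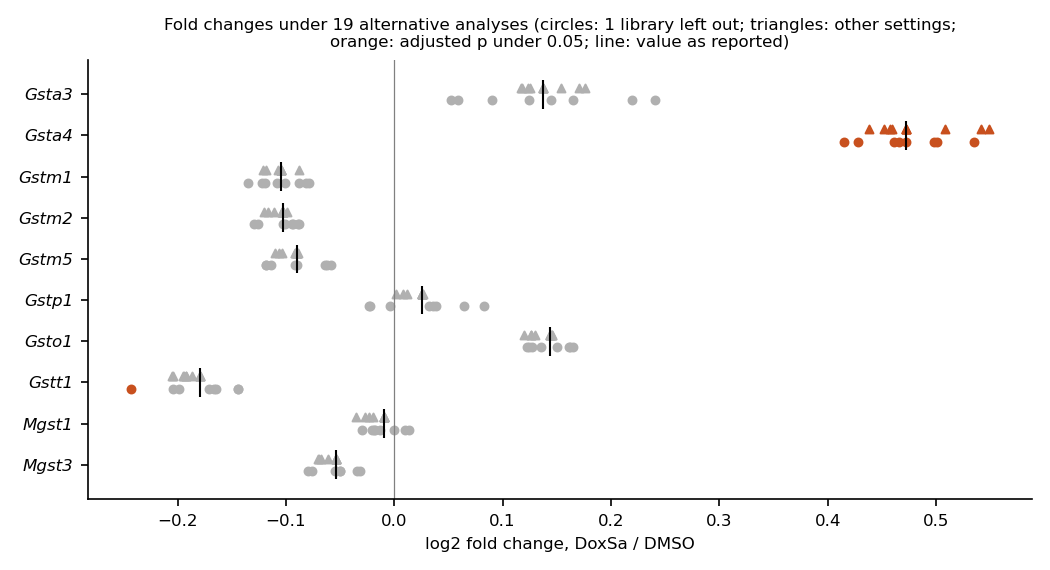
Log2 fold changes of the 10 transferase genes (rows) under 19 alternative analyses, with circles for 1 library left out, triangles for other settings, orange for an adjusted p under 0.05 and a line at the value as reported. Gsta4 stays between 0.41 and 0.55 and is called throughout, Gstt1 is called once, without DMSO 4, and Gstp1 and Mgst1 cross 0.

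Gsta4, Gsta3, Gsto1, Gstm1, Gstm2, Gstm5, Gstt1 and Mgst3 kept their sign in all 19 alternatives. Gstp1 and Mgst1, at 0.03 and -0.01 the members with the smallest values, changed sign when some single libraries were left out.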

How the data were processed

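Bulk RNA sequencing of 8 libraries was analysed, 4 with DMSO and 4 with DoxSa, grouped by their titles. HISAT2, HTSeq and build GRCm39 are named per the submitters' processing notes; for their versions, the annotation and strandedness, a statement was not found in the labels or file headers. FPKM of 22962 genes come as deposited by the authors in 1 table, with a column for each library. Without strand, reads from the part that overlapping genes such as Gstm5 and 4933431E20Rik share cannot be told apart.

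Whole reads were recovered from the steps of the FPKM values, for 12060 of 12060 tested genes within 0.001 of a whole number, and the rows of the table held at least 99.8% of each recovered total. Differences were tested with limma 3.58.1 (R 4.3.3), two-sided and with an intensity trend, on log2(FPKM + 1) of genes whose mean reached 0.5 FPKM, with Benjamini-Hochberg adjustment over all of them. This scale understates the change of low genes. The script was tested on simulated data in which all genes shared a single extra spread beyond counting. That test does not cover genes with a spread of their own. Coding sequences were aligned with Biopython 1.88 from GENCODE transcripts. Same-numbered libraries were not treated as pairs in the main test (see the block among the alternatives). Libraries of the same group all differed by more than sampling noise (lowest chi-square per degree of freedom 5.67). The genes named were the 10 members, the tested genes of the families, up to 3 called genes per list and direction, Nfe2l2, Keap1, Gclc and Gclm, and the 2 most abundant markers of each cell type; 4933431E20Rik, the pseudogene partners, the neighbours of Gsta4, Ptprc, Cd14 and Retn were added after their values were seen. The members and all 14 lists were chosen with earlier results of these data known. Alternatives changed the pseudocount, filter, trend, weights, scaling, test, block and libraries.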

Additional observations from a re-analysis of the deposited data

Results flagged for a closer look

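Gstp1 measured 109.6 FPKM in DoxSa 2, while the other DoxSa libraries lay between 100.3 and 102 FPKM, so that library stood apart from the rest of its group by a test for a single outlier among 4 values. It was the 1 case among 20 groups tested, 10 genes in 2 groups each, and chance gives about 1 in 20. DMSO 1 and DMSO 2 were at 109.9 and 114 FPKM, so the value lay inside the range of the other group.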

How the results depend on the processing

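Gsta4 was called higher in all 19 alternatives, and the count of members called higher was 1 in each. The count called lower was 0 in the main analysis and between 0 and 1 over left-out libraries: it was 1 without DMSO 4, where Gstt1 passed with -0.24. Among the members, sign changes were seen in Gstp1 and Mgst1. Over left-out libraries Gstp1 ranged from -0.0238 (without DMSO 3) to 0.0832, with -0.0222 without DMSO 4 and -0.00412 without DoxSa 2, and Mgst1 from -0.0294 to 0.0135 (without DMSO 3), with 0.0100 without DoxSa 3. With the replicate number as a block the counts of members called were again 1 higher and 0 lower, and Gsta4 was at 0.47 (adjusted p = 0.00927). Deviations of same-numbered libraries correlated between -0.0989 and 0.0654, and 1 of 8 libraries correlated best with its own number. With 4 libraries per group, such correlations cannot decide whether the numbers pair the samples. The block lowered the SE of Gsta3 from 0.12 to 0.06 and that of Gstt1 from 0.07 to 0.05, and neither gene was called. For Gstm2, Gsto1 and Mgst1 the SE was higher with the block. Over all tested genes 468 were called higher and 244 lower, and these counts became 158 and 108 with no filter on low values. Leaving out DoxSa 1 gave 247 and 154, and leaving out DoxSa 2 gave 233 and 152. There were 308 called higher when DoxSa 3 was left out, and 158 called lower when DMSO 2 was. With quantile normalization, 384 and 316 were called, a share of 54.9% higher in place of 65.7%. The alpha-class genes had the fewest reads of the members, at 170 to 324 per library. Counting alone gives a coefficient of variation of 6.21% for Gsta3 and 6.44% for Gsta4, below the spread observed within either group.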
